A study of Homo sapiens with 18 samples.

Results

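The comparison set RNA recovered with an antibody to G3BP1 from unstressed astrocytoma cells against whole-lysate RNA (input) of the same cells. It used the 3 arrays whose titles name G3BP1 without stress and the 3 arrays whose titles name input without stress, 6 of the 18 exon arrays in the series. All arrays come from U251-MG, an established human astrocytoma line that the labels also describe as human brain, so that each group is 1 cell line in culture. The G3BP1 RIP (RNA immunoprecipitate) and the input of the main comparison came from cells given only the vehicle, DMSO, and harvested 30 min later. A pair of further groups, G3BP1 RIP and input from cells given 500 µM arsenite for 30 min, and the TIAR RIP of unstressed cells, whose labels use the name Tial, served to show where the unstressed G3BP1 RIP differed. Each group holds 3 arrays that the labels call biological replicates, and no label says whether they were separate cultures. A RIP with a control antibody was not analysed here, so input is the baseline.

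G3BP1 is a cytoplasmic RNA-binding protein that nucleates stress granules, assemblies of stalled mRNA and protein that form when translation initiation stops. In unstressed cells it is spread through the cytoplasm, where it binds mRNA and forms complexes with CAPRIN1, USP10, UBAP2L and its paralogue G3BP2. An antibody to the protein brings down the RNA bound to it or to its partners, and the array then reports which transcripts make up that RNA. The values are log2 signals, 1 per transcript cluster (the set of exon probes assigned to a gene locus). A difference of 1 on this scale is a doubling of a transcript's share of the labelled RNA. The labels give the same mass of RNA for every labelling, so a value shows composition and not how much RNA the antibody recovered. In such bulk RNA, a value does not show how many cells hold a transcript or how much of it each cell holds.

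Replicate 3 of the G3BP1 RIP stood apart from its group before any result was drawn. It correlated at 0.9812 and 0.9786 with replicates 1 and 2, which correlated at 0.9952 with each other. Its upper quartile was 9.45, against 9.94 and 9.92 in the other RIP arrays, while the input arrays lay between 9.64 and 9.67. The median SD over transcript clusters was 0.22 in the G3BP1 RIP and 0.08 in input. The labelled cell type was checked against 16 measured astrocyte and glioma markers. VIM (13.22 in the RIP, 12.95 in input), CD44 (11.93 and 11.71), SOX9 (10.72 and 10.35), EGFR (10.83 and 9.60) and GFAP (9.53 and 8.45) were well above the median of 5.27 over 220 olfactory receptor genes. AQP4 (4.71 and 4.78) lay below that median, as did the input mean of S100B (5.20). Neuron markers were called higher in 3 of 14 and lower in 0, with array means of 7.44 to 7.45 in the RIP and 7.22 to 7.28 in input. Myeloid markers were called higher in 0 of 10 and lower in 1, with 6.41 to 6.49 in the RIP and 6.398 to 6.472 in input. Oligodendrocyte markers were called higher in 1 of 8, with array means of 7.85 to 7.95 in input. Epithelial and blood markers were called higher in 2 of 10 and lower in 2, with 7.53 to 7.54 in input. The part of these lineages in the results below was not tested.

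RNA in the unstressed G3BP1 RIP differed from input across a large part of the transcriptome. Of 22011 transcript clusters, 8765 (39.8%) were called at an adjusted p under 0.05 (limma, Benjamini-Hochberg), of which 4546 (20.7%) were higher in the G3BP1 RIP and 4219 (19.2%) were lower. Transcript clusters past a log2 difference of 1 as well numbered 1418 higher (6.44%) and 1672 lower (7.6%). With 1 transcript cluster per gene, 3374 of 14232 genes (23.7%) were higher and 2221 (15.6%) lower, 39.3% in either direction, and those shares are the background for every count of genes in the lists. The median difference over the 14232 genes was 0.04. Without replicate 3 of the G3BP1 RIP, 29.8% of genes were higher and 15.1% lower, and 97.5% of the higher calls and 84.7% of the lower calls on transcript clusters were kept with 0 changes of sign. Replicate 3 was the lowest RIP array in 86% of the higher calls and in 72.3% of the lower ones, which brought enriched transcripts nearer to input and took depleted ones farther from it.

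The mRNA of the bait itself was among those enriched. G3BP1 mRNA measured 12.62, 12.77 and 12.21 in the G3BP1 RIP arrays, against 11.76, 11.72 and 11.74 in input. All 3 RIP arrays were above all 3 input arrays, with a difference of 0.80 ± 0.13 (SE, adjusted p = 1.09e-04 in limma). G3BP2, the paralogue, measured 10.07, 10.14 and 9.54 in the RIP and 9.79, 9.80 and 9.85 in input, so that the groups overlapped (difference 0.10, adjusted p = 0.652, but 0.26 with adjusted p = 0.00887 when limma weighted the arrays). Among the partners of G3BP1, CAPRIN1 was higher by 0.29 ± 0.08 (adjusted p = 0.00756) and UBAP2L by 0.72 ± 0.08 (adjusted p = 3.35e-06), with no overlap of arrays for either gene. The CAPRIN1 call was lost when the 6 arrays were fitted without the other groups (adjusted p = 0.0849 in limma). TIA1 (0.30, adjusted p = 0.288) and TIAL1 (-0.36, adjusted p = 0.0795), which encode the related stress granule proteins TIA-1 and TIAR, did not pass the test, and their arrays overlapped. TIA1 passed without RIP replicate 3 (0.51, adjusted p = 0.0478) and TIAL1 without RIP replicate 1 (-0.50, adjusted p = 0.0182, both in limma). ECT2 (0.27, adjusted p = 0.439) and AURKB (0.06, adjusted p = 0.645), the cell division genes named in the series title, did not pass either. EGR1, an immediate early transcription factor gene, was at 8.49, 8.64 and 8.55 in the RIP and 8.67, 8.56 and 8.53 in input, with a difference of -0.03.

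The 15 genes with the largest enrichment by the naming rule began with DGKA. DGKA, a diacylglycerol kinase gene, measured 10.78, 10.65 and 10.48 in the G3BP1 RIP, against 8.14, 8.12 and 8.08 in input. That is a log2 difference of 2.52 ± 0.09 or 5.75-fold (adjusted p = 1.1e-10), with every RIP array more than 2 log2 units above every input array. SMARCA1, an ISWI chromatin remodelling ATPase gene, measured 9.11, 8.93 and 8.23 in the RIP and 6.34, 6.15 and 6.24 in input (difference 2.52 ± 0.19). SNRNP200, which encodes the helicase that unwinds U4 from U6 in the spliceosome, measured 12.23, 12.11 and 12.07 in the RIP and 9.77, 9.72 and 9.75 in input. Its 3 RIP arrays lay close together, and the difference was 2.39 ± 0.11. They also held UTP20 of the small-subunit processome (2.36), URGCP (2.33), the giant HECT ubiquitin ligase gene HERC1 (2.31) and OGDH of the citric acid cycle (2.31). PRKDC, the catalytic subunit of DNA-dependent protein kinase, differed by 2.29, SMG8 of nonsense-mediated decay by 2.26 and GEMIN5 of the SMN complex by 2.26. MCM3 of the replicative helicase (2.25), SPTAN1, a spectrin gene (2.21), WDR6 (2.20), INPP5B, an inositol polyphosphate phosphatase gene (2.20), and UBR2, an N-degron ubiquitin ligase gene (2.19), completed them. The rule, which requires that the RIP and input arrays do not overlap, was met by 2735 genes on the higher side.

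**Figure D1:**
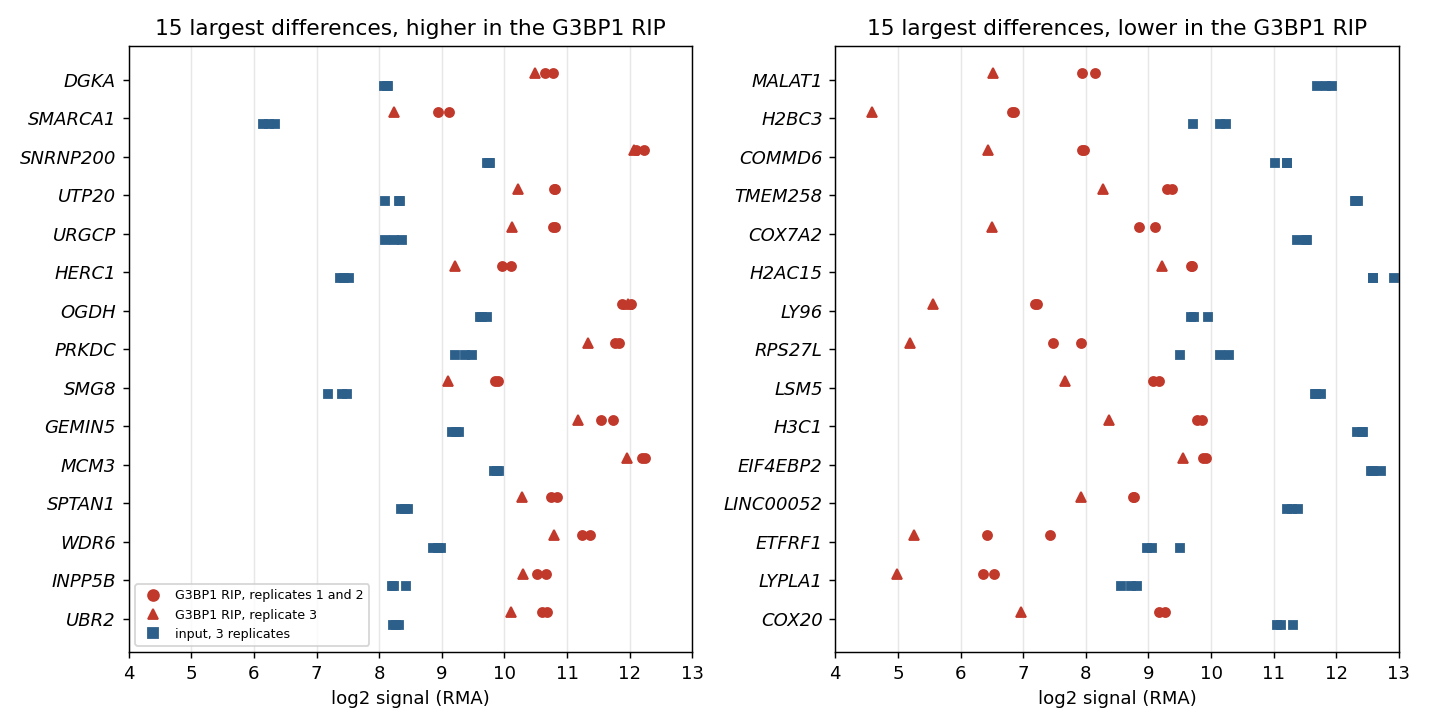
Log2 signal (RMA) in each array of the 15 genes with the largest differences in each direction, with G3BP1 RIP replicates 1 and 2 as red circles, replicate 3 as red triangles and the 3 input replicates as blue squares. In the left panel replicate 3 is the RIP array nearest to input for all but OGDH, and in the right panel it is the farthest from input for all 15 genes.

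MALAT1, a nuclear long noncoding RNA, led the depleted side. It measured 7.93, 8.15 and 6.52 in the G3BP1 RIP, against 11.93, 11.69 and 11.83 in input. The 3 input arrays lay close together and far above the RIP, and the difference was -4.29 ± 0.29 (adjusted p = 3.13e-08), or -3.78 without replicate 3. TUG1, the other long noncoding RNA measured from the list of nuclear RNAs, was at 12.16, 12.14 and 12.06 in the RIP and 11.997, 11.856 and 11.949 in input (difference 0.19, adjusted p = 0.0623, and adjusted p = 0.0361 without replicate 3). LINC00052, another long noncoding RNA, was lower too (difference -2.82 ± 0.19).

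Transcripts for subunits of mitochondrial, nucleosomal and other complexes were among the rest of the leading depleted genes. TMEM258, a small subunit of the oligosaccharyltransferase, measured 9.30, 9.38 and 8.28 in the RIP and 12.34, 12.30 and 12.31 in input (difference -3.33 ± 0.21). COX7A2, a subunit of cytochrome c oxidase, measured 8.85, 9.10 and 6.50 in the RIP and 11.52, 11.37 and 11.53 in input (difference -3.32 ± 0.49). Replicate 3 was more than 2 log2 units below the other RIP arrays there, and the difference without it was -2.50. EIF4EBP2, a repressor of cap-dependent translation that binds eIF4E, measured 9.88, 9.92 and 9.55 in the RIP and 12.71, 12.55 and 12.59 in input. Its difference of -2.83 ± 0.11 (adjusted p = 1.3e-10) had the smallest error of the 15 leading depleted genes. COMMD6 (-3.70), LY96, the coreceptor for lipopolysaccharide (-3.13), RPS27L, a ribosomal protein paralogue (-3.11), and LSM5 of the LSm ring (-3.06) followed. ETFRF1 (-2.81), LYPLA1, an acyl-protein thioesterase gene (-2.74), and COX20, an assembly factor of cytochrome c oxidase (-2.70), were also among the 15, with the histone genes H2BC3, H2AC15 and H3C1. The rule was met by 1615 genes on the lower side.

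Histone mRNAs were depleted in nearly every measured member. Replication-dependent histone genes lie in clusters, have no introns and end their mRNAs in a stem-loop in place of a poly(A) tail. Of 65 histone genes listed, 48 had a transcript cluster of their own, and of these 44 were lower in the G3BP1 RIP and 0 were higher. The median difference was -1.69, beside 0.04 over all genes, and -1.43 without replicate 3, when 43 were lower. Array by array, the median of the 48 stood at -1.47, -1.42 and -2.06 in the RIP replicates relative to the input mean. All 5 linker histone H1 genes, all 9 H3 genes and all 9 H4 genes were lower, as were 19 of the 21 H2A and H2B genes, H2BC1 and H2BC10 being the exceptions. The RIP and input arrays did not overlap for 45 of the 48, as for 46.9% of all transcript clusters. H2BC1 (-0.21) and H2BC10 (-0.78, adjusted p = 0.0569, and -1.03 with adjusted p = 0.0181 without replicate 3) had input means below the olfactory receptor median of 5.27. Near-identical copies are frequent among these genes, so probes can read more than 1 of them and the counts are not independent.

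H2AC15 measured 9.70, 9.68 and 9.21 in the RIP and 12.59, 12.59 and 12.92 in input (difference -3.17 ± 0.17, adjusted p = 2.44e-09). H2BC3 measured 6.82, 6.86 and 4.59 in the RIP and 10.14, 9.71 and 10.24 in input (difference -3.94 ± 0.59). The replicate 3 value of H2BC3 lay under the olfactory receptor median, where signal cannot be separated from absence, and the difference without that array was -3.19. H3C1 measured 9.78, 9.86 and 8.38 in the RIP and 12.42, 12.32 and 12.40 in input (difference -3.05 ± 0.32). The 4 listed variants that are expressed outside replication or as polyadenylated mRNA showed small differences. H2AX was lower (difference -0.57 ± 0.09) and H1-10 was called lower at -0.29, which did not pass without replicate 3 (adjusted p = 0.141). H2AZ1 measured 13.57, 13.58 and 13.18 in the RIP and 13.61, 13.67 and 13.71 in input (difference -0.22, adjusted p = 0.159). H2AZ2 differed by -0.07 (adjusted p = 0.516), and its groups overlapped.

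The promoters of the 3 most depleted histone genes are shown beside those of H2AZ1 and H2AZ2, which did not pass the test. Any link between promoter sequence and recovery in the RIP was not tested. Each line gives the 120 bases before the annotated start in RefSeq (GRCh38.p14), with the CCAAT motif (or its reverse complement ATTGG) and the TATAA motif in capitals.
H2BC3, chr6:26043714-26043833, minus strand: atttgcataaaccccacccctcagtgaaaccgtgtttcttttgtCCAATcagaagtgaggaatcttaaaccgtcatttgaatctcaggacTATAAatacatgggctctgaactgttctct
H2AC15, chr6:27838376-27838495, minus strand: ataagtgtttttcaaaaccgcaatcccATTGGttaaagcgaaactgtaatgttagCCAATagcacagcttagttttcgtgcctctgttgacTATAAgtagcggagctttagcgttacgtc
H3C1, chr6:26020331-26020450, plus strand: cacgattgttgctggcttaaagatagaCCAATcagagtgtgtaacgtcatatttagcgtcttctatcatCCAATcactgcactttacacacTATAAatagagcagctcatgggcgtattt
H2AZ1, chr4:99950276-99950395, minus strand: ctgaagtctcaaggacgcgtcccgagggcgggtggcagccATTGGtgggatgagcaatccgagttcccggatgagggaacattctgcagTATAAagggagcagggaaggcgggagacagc
H2AZ2, chr7:44848088-44848207, minus strand: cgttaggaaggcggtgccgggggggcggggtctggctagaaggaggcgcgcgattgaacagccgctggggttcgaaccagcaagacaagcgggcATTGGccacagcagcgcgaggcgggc
Of the 48 measured histone genes, 43 had a promoter in the RefSeq table. Within 250 bases before the start and on either strand, CCAAT was found in 38 of the 43 (88.4%), against 33% of all 27305 promoters, and TATAA in 41 (95.3%), against 19.6%. CCAAT was present in 34 of 39 genes called lower and in 4 of 4 not called, and TATAA in 38 of 39 and 3 of 4. Only 4 genes were not called, and H2BC1 and H2BC10 among them had input means below the olfactory receptor median. These counts therefore cannot show whether the letters separate the called genes from the others.

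**Figure D2:**
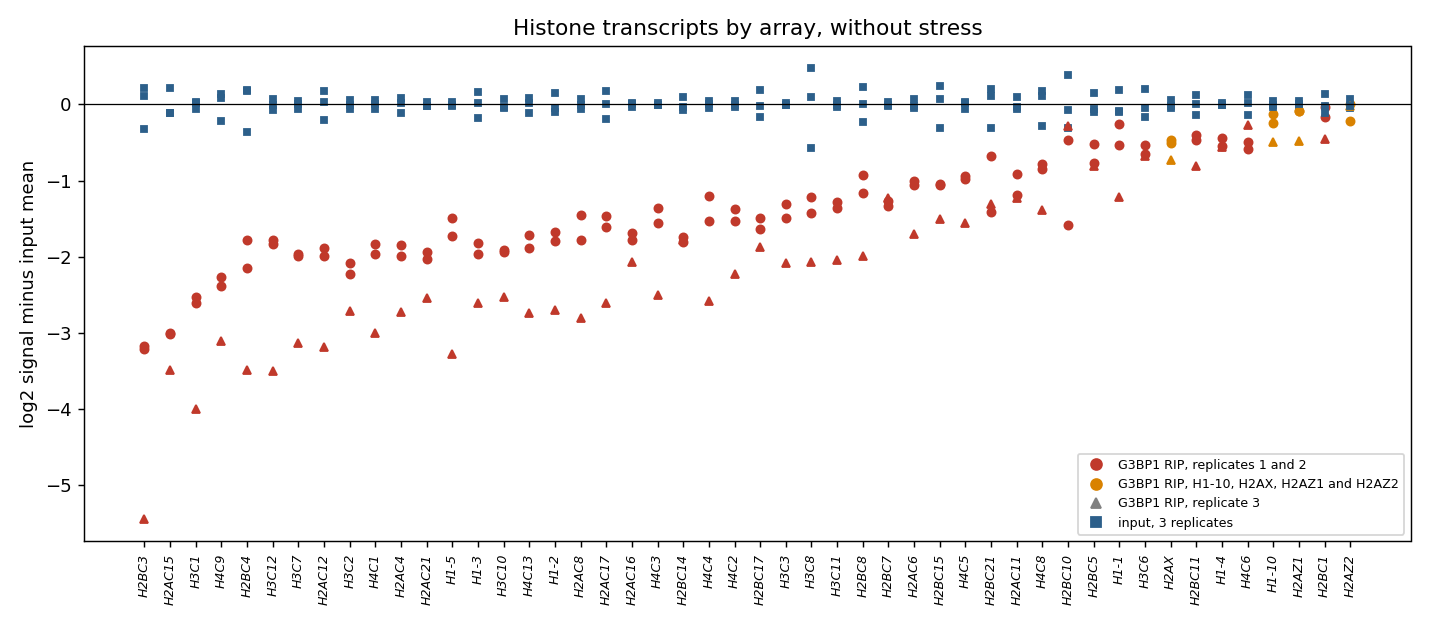
Log2 signal of each measured histone gene minus its input mean, with the 3 input replicates as blue squares, G3BP1 RIP replicates 1 and 2 as circles and replicate 3 as triangles, and the 4 variants in orange. Circles and triangles lie below the input squares for 45 of the 48 genes. The variants sit toward the right end, with some replication-dependent genes such as H2BC1 between them.

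Nuclear-encoded subunits of the respiratory chain were depleted in 37 of 54 measured members and enriched in 7, with a median of -0.75 (-0.55 without replicate 3, with 33 lower and 9 higher). All 8 measured subunits of cytochrome c oxidase were lower. COX8A measured 10.77, 10.20 and 9.51 in the RIP and 12.69, 12.60 and 12.80 in input (difference -2.54 ± 0.23). UQCR11 of complex III measured 9.08, 8.89 and 8.63 in the RIP and 10.39, 10.29 and 10.22 in input (difference -1.43 ± 0.12). Complex I had 20 of 26 subunits lower and 4 higher, and the accessory subunits NDUFA1 (-2.27) and NDUFA5 (-1.52, and -0.87 without replicate 3) were among the depleted ones. SDHA had the largest difference of the 7 enriched members. SDHA, the flavoprotein of succinate dehydrogenase, measured 12.82, 12.49 and 12.30 in the RIP and 10.99, 11.06 and 11.07 in input (difference 1.499 ± 0.193). NDUFV1, the NADH-binding subunit of complex I, was higher by 1.12 and ATP5F1A, the alpha subunit of ATP synthase, by 1.08. NDUFA9 (0.84), NDUFB7 (0.65), NDUFA10 (0.62) and UQCRC1 (0.57) were the other 4. NDUFB7 was called although its arrays overlapped, and 4 members were called higher without RIP replicate 1. Grouping by complex was made after the values were seen.

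Ribosomal protein mRNAs leaned the same way. Of 80 cytosolic ribosomal protein genes listed, 26 had a transcript cluster with a single symbol, and 13 of these were lower and 0 higher (median -0.44, and 12 lower and 1 higher without replicate 3). RPS15A measured 8.01, 7.78 and 6.87 in the RIP and 9.90, 9.84 and 9.73 in input (difference -2.27 ± 0.24). RPL37A measured 7.59, 7.73 and 6.83 in the RIP and 9.23, 9.21 and 9.37 in input (difference -1.89 ± 0.19). RPL41 (-1.90, and -1.11 without replicate 3), RPS24 (-1.41), RPL11 (-1.40) and RPL22 (-1.39) were also lower, while RPL6 (-0.09), RPL8 (-0.03) and RPS4X (0.39) did not pass the test. RPS4X passed without replicate 3 (0.70, adjusted p = 0.0101 in limma). Pseudogene copies of these genes are frequent, and the array's probes may read them too. Mitochondrial ribosomal proteins were lower in 28 of 65 and higher in 4 (median -0.35), and without replicate 3 the counts were 26 and 7 with a median of -0.13. The 4 higher calls became 2 without G3BP1 RIP replicate 2, input replicate 1 or input replicate 2. MRPS17 (-2.11, and -1.36 without replicate 3), MRPL41 (-1.81) and MRPL12 (-1.17) were lower and MRPL49 (0.65) and MRPS27 (0.58) higher, the arrays of MRPS27 overlapping (0.91 without replicate 3).

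**Figure D3:**
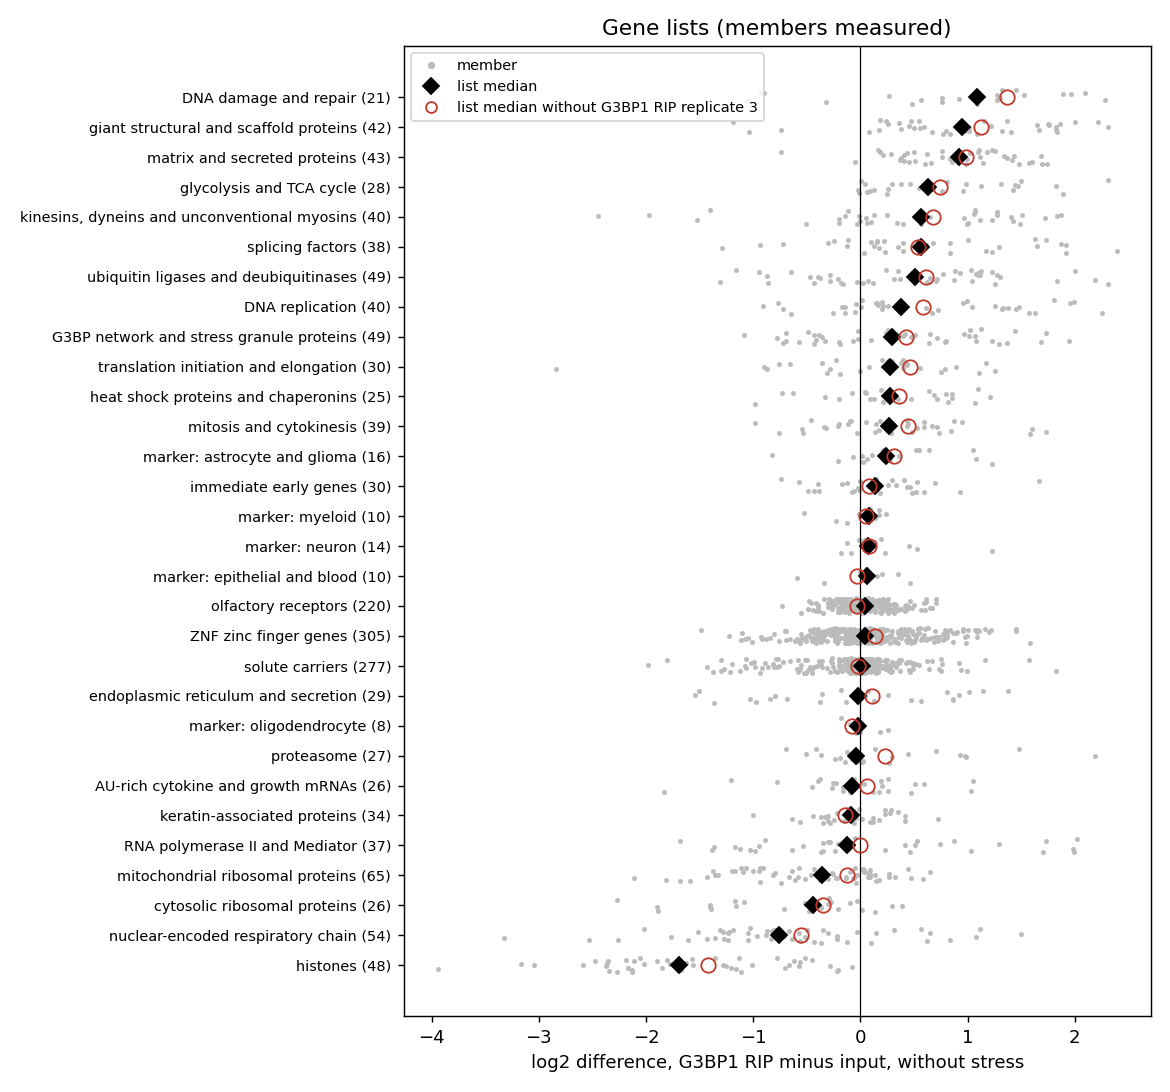
Log2 difference (G3BP1 RIP minus input, without stress) of each member of 30 gene lists as grey points, with the list median as a black diamond and the median without G3BP1 RIP replicate 3 as a red circle. DNA repair, giant scaffold and matrix genes lie highest, and the respiratory chain and histones lie lowest.

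Transcripts of secreted matrix proteins, which are translated at the endoplasmic reticulum, were enriched in 38 of 43 measured members and depleted in 1 (median 0.92). COL1A2, a type I collagen chain, measured 10.44, 10.47 and 10.12 in the G3BP1 RIP and 8.67, 8.69 and 8.63 in input (difference 1.68 ± 0.11). LOXL2, a collagen-crosslinking oxidase gene, measured 12.16, 12.01 and 12.18 in the RIP and 10.76, 10.75 and 10.73 in input (difference 1.37 ± 0.06, adjusted p = 8.89e-10). These groups were far apart in every array, and replicate 3 of LOXL2 was the highest of its group. TNC, the tenascin C gene, measured 11.78, 11.73 and 11.53 in the RIP and 10.35, 10.20 and 10.25 in input (difference 1.41 ± 0.09). FBN1 of microfibrils (1.74), FN1, the fibronectin gene (1.70), COL12A1 (1.597) and the laminin genes LAMA4 (1.57), LAMB1 (1.48), LAMA1 (1.43) and LAMC1 (1.34) were higher. Collagen genes were higher in 12 of 15 and lower in 0. TIMP1, a small secreted inhibitor of metalloproteinases, was the depleted member, at 12.15, 12.23 and 11.76 in the RIP and 12.82, 12.81 and 12.72 in input (difference -0.74 ± 0.12). Its relative TIMP2 was higher by 1.15.

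Genes of giant structural and scaffold proteins were enriched in 33 of 42 measured members and depleted in 2 (median 0.95, and 1.12 without replicate 3 with 36 higher). MYH9, a nonmuscle myosin heavy chain gene, measured 12.60, 12.53 and 12.52 in the RIP and 10.74, 10.66 and 10.67 in input (difference 1.86 ± 0.07, adjusted p = 1.1e-10). DYNC1H1, the heavy chain of cytoplasmic dynein, measured 11.32, 11.20 and 10.87 in the RIP and 9.35, 9.22 and 9.30 in input (difference 1.84 ± 0.12). KMT2D, a histone methyltransferase gene, differed by 1.37, the ubiquitin ligase gene UBR4 by 2.01 and BIRC6 by 1.83. The depleted members were ANKRD12 (-1.19, and -0.76 without replicate 3) and MACF1 (-1.04), and the MACF1 transcript cluster had input values of only 6.14 to 6.43. TTN (0.17) and NEB (0.08), muscle genes, did not pass the test, and TTN was at 4.22 in the RIP and 4.05 in input. Motor protein genes were higher in 21 of 40 and lower in 6. The dynein and dynactin chains split: the heavy chain gene above, DYNC1I2 (1.88) and DCTN1 (1.72) were higher, while the light chain genes DYNLT3 (-2.45), DYNLL1 (-1.97), DYNLT1 (-1.52) and DYNLRB1 (-1.40) were lower.

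Splicing factor mRNAs were higher in 22 of 38 and lower in 3 (median 0.56). PRPF8, the central U5 protein, measured 13.46, 13.42 and 13.42 in the RIP and 11.48, 11.49 and 11.56 in input (difference 1.92 ± 0.08). SF3B1 (1.92), EFTUD2, a U5 GTPase gene (1.87), and SF3B3 (1.62) were also higher, and all 7 measured SF3A and SF3B genes were higher. The small core proteins SNRPD1 (-1.29) and SNRPF (-0.93), which form the Sm ring, and SNRPC of U1 (-0.72) were the 3 lower members. RNA polymerase II and Mediator genes divided into 13 higher and 14 lower of 37, with a median of -0.12 (14, 10 and -0.002 without replicate 3). POLR2A, the largest polymerase subunit, measured 12.28, 12.20 and 12.23 in the RIP and 10.54, 10.44 and 10.52 in input (difference 1.73 ± 0.08). POLR2B, the other large subunit, was higher by 1.99. POLR2L, a small subunit, measured 10.19, 10.19 and 9.86 in the RIP and 11.78, 11.74 and 11.76 in input (difference -1.68 ± 0.16). POLR2D (-1.36), POLR2K (-1.17), POLR2E (-0.94), POLR2C (-0.53, and -0.33 without replicate 3) and POLR2F (-0.35) were lower too. In Mediator, 11 of 25 measured genes with MED symbols were higher and 7 lower (12 and 3 without replicate 3). MED23 (2.02), MED12 (1.99), MED11 (0.88) and MED20 (0.74) were higher and MED21 (-1.38) and MED30 (-1.12) lower. MED1 (-0.12) and MED13 (-0.05) did not pass the test.

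DNA replication genes were higher in 18 of 40 and lower in 4 (median 0.38, and 24 higher with a median of 0.59 without replicate 3). Of the 7 MCM genes measured, which encode the replicative helicase and related proteins, 6 were higher, among them MCM2 at 11.56, 11.38 and 11.15 in the RIP and 9.41, 9.40 and 9.30 in input (difference 2.00 ± 0.12). POLE, the catalytic subunit of DNA polymerase epsilon, was higher by 1.81 and POLD1 of polymerase delta by 1.46, and the 4 lower members were GINS1 (-0.65), GINS2 (-0.77, and -0.45 without replicate 3), POLD2 (-0.72) and ORC6 (-0.91). The other GINS genes, GINS3 (0.38) and GINS4 (0.37), did not pass the test. DNA repair genes were higher in 15 of 21 and lower in 3 (median 1.09). MSH6 of mismatch repair measured 10.51, 10.37 and 10.00 in the RIP and 8.38, 8.32 and 8.29 in input (difference 1.97 ± 0.18). ATR (2.09) and TP53BP1 (1.89) were higher, and XRCC2 (-1.05), PALB2 (-0.93) and NBN (-0.90) lower. Without replicate 3, XRCC2 was at -0.69 and NBN at -0.60. Mitosis genes were higher in 12 of 39 and lower in 5 (median 0.27), and in 21 and 3 without replicate 3 of the RIP (median 0.45). ESPL1, the separase gene (1.73), KIF2C (1.604) and CIT (1.58) were higher, and BIRC5, the survivin gene, was lower (-0.98 ± 0.12). The lower count was 3 without input replicate 3 as well.

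Proteasome genes were higher in 7 of 27 and lower in 2, with a median of -0.04. Those shares, 25.9% and 7.41%, stand beside 23.7% and 15.6% of all genes. Without replicate 3 the counts were 10 and 2 and the median turned to 0.23. The 13 measured genes of the catalytic core gave 0 higher and 1 lower call, for PSMA7 (-0.69), and PSMB5 was at 12.41, 12.33 and 11.98 in the RIP and 12.30, 12.31 and 12.32 in input. The 14 measured genes with PSMC and PSMD symbols gave 7 higher and 1 lower. PSMC2, an ATPase subunit, measured 12.38, 12.42 and 12.01 in the RIP and 10.20, 9.92 and 10.13 in input (difference 2.19 ± 0.18). Chaperonin CCT genes were higher in 6 of 7, with CCT3 at 1.10 ± 0.09. Ubiquitin ligase and deubiquitinase genes were higher in 26 of 49 and lower in 7, and the lower count was 4 without replicate 3 of the RIP. Glycolysis and citric acid cycle genes were higher in 18 of 28 and lower in 0 (median 0.63). OGDH measured 12.02, 11.88 and 11.98 in the RIP and 9.61, 9.72 and 9.64 in input (difference 2.31 ± 0.10). HK1 (1.83), PFKP (1.44) and PKM (0.68) were higher, while LDHA (0.04), PGK1 (-0.02) and ALDOA (0.09) did not pass the test.

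Messages for other components of stress granules and P-bodies were enriched more often than depleted. Of 49 measured members, 26 were higher and 8 lower (median 0.30). UPF1, the helicase of nonsense-mediated decay, measured 11.27, 11.19 and 11.05 in the RIP and 9.30, 9.21 and 9.18 in input (difference 1.94 ± 0.09). EDC4, a scaffold of mRNA decapping, measured 11.47, 11.35 and 11.36 in the RIP and 9.69, 9.64 and 9.64 in input (difference 1.74 ± 0.06, adjusted p = 1.1e-10). MOV10 (1.68), FXR2 (1.44), XRN1 (1.30) and TNRC6B (1.08) were also higher. PATL1, another P-body protein gene, measured 10.86, 10.97 and 10.68 in the RIP and 12.01, 11.86 and 11.89 in input (difference -1.08 ± 0.09). AGO1 (-0.78), YTHDF1 (-0.72), NUFIP2 (-0.69, and -0.45 without replicate 3), STAU2 (-0.69) and STAU1 (-0.57) were lower. Among translation factors 12 of 30 were higher and 7 lower (median 0.28, and 0.47 without replicate 3), with EIF4G1, the initiation scaffold, at 1.25 ± 0.12 and EIF3B at 1.11 ± 0.10. The higher count was 6 without replicate 1 of the RIP. The eIF4E-binding repressor genes EIF4EBP2 (-2.83) and EIF4EBP1 (-0.90) were both lower.

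Genes of the endoplasmic reticulum were split, with 10 of 29 higher and 8 lower (median -0.02, and 0.11 without replicate 3). SRP54 (1.38), SRPRA (1.14) and SRP68 (1.02) of the signal recognition pathway were higher, and SSR3 (-1.54), SSR4 (-1.50) and SRP14 (-1.03) lower. Heat shock and chaperonin genes were higher in 12 of 25 and lower in 2, with the lower count at 1 in the absence of RIP replicate 3 or of any 1 input array. Immediate early genes were higher in 11 of 30 and lower in 6 (median 0.14, and 0.08 without replicate 3). JUN measured 12.16, 12.19 and 11.95 in the RIP and 10.45, 10.43 and 10.42 in input (difference 1.66 ± 0.11). JUND was lower (-0.74 ± 0.08). Genes with AU-rich cytokine and growth factor messages were higher in 6 of 26 and lower in 5. These shares, 23.1% and 19.2%, were near the 23.7% and 15.6% of all genes. The higher count was 10 without RIP replicate 3 and the lower count 3 without input replicate 2. CXCL8, the interleukin gene, measured 7.57, 7.77 and 7.05 in the RIP and 9.14, 9.42 and 9.31 in input (difference -1.83 ± 0.18). CCL2 was lower (-1.21 ± 0.10), and CSF1 was higher (1.03 ± 0.11).

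Gene families without a common role served as a background. Zinc finger genes were higher in 65 of 305 and lower in 40 (median 0.04), shares near those of all genes on the higher side, and without replicate 3 the counts were 104 and 32 (median 0.14). Solute carrier genes were higher in 36 of 277 and lower in 43. Olfactory receptor genes, which astrocytoma cells are not known to use, were called in 8 higher and 5 lower of 220, and keratin-associated protein genes in 0 and 2 of 34. The olfactory counts fell to 5 higher and 3 lower without RIP replicate 1, and to between 2 and 3 lower without RIP replicate 2, input replicate 2 or input replicate 3. The keratin-associated count of lower calls ran from 0 to 5 over the arrays left out.

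The genomic span of a gene, exons and introns together, moved with the calls. In the decile of 13733 genes with the shortest spans (median 2.38 kb), 8.22% were higher in the G3BP1 RIP and 21.3% lower. In the decile with the longest spans (median 279 kb), 34.7% were higher and 10.1% lower. The median difference was -0.07 in the shortest decile and 0.12 in the longest. Spearman's rho across genes was 0.18, given as a description because genes are not independent. With arsenite the medians were -0.08 and 0.38, so the trend was not particular to unstressed cells. Between the G3BP1 and TIAR RIPs without stress, the median difference was 0.09 in the shortest decile and -0.001 in the longest. Span is not transcript length, which was not used here. Signal also differed, at a median of 7.65 in the shortest decile, 8.55 in decile 6 and 7.86 in the longest. The part of signal in this relation was not tested.

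**Figure D4:**
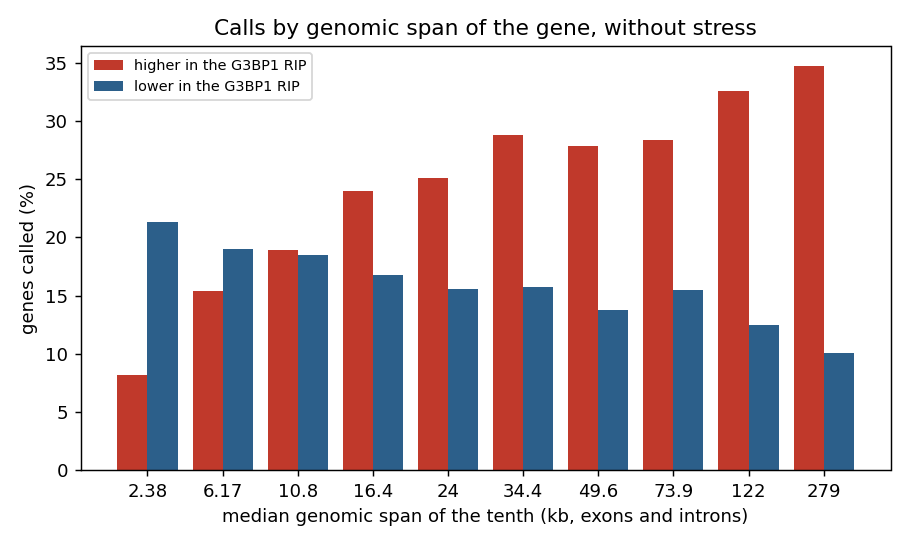
Share of genes (%) called higher (red) and lower (blue) in the G3BP1 RIP without stress, in deciles of genes by genomic span, each labelled with its median span in kb. The higher share goes from 8.22% in the shortest decile to 34.7% in the longest, and the lower share from 21.3% to 10.1%.

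The G3BP1 RIP and input of arsenite-treated cells use none of the same arrays, and the calls without stress were looked up there. In those arrays 6440 transcript clusters (29.3%) were higher in the RIP and 3339 (15.2%) lower, and by gene 35.3% and 9.9%. Of the 4546 higher without stress, 3702 were also higher with arsenite (81.4% of the unstressed and 57.5% of the arsenite list) and 26 were lower. Of the 4219 lower without stress, 2005 were also lower with arsenite (47.5% of the unstressed and 60% of the arsenite list), and 414 were higher. These shares depended on unstressed G3BP1 RIP replicate 3 and stressed input replicate 1. Without both arrays, 75.5% of the calls higher without stress were also higher with arsenite, and 170 were lower. Of the calls lower without stress, 55.8% were then also lower with arsenite, and 413 were higher. Across all 22011 transcript clusters the differences of both conditions had a Pearson r of 0.755 and a Spearman rho of 0.652, as a description. Histones were lower in 44 of 48 in either condition, with a median of -1.69 without stress and -1.32 with arsenite. Matrix genes had medians of 0.92 and 0.85, giant scaffold genes 0.95 and 1.35, and the respiratory chain -0.75 and -0.34.

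The difference between the conditions was tested as an interaction (enrichment without stress minus enrichment with arsenite). It was higher in 584 transcript clusters (2.65%) and lower in 3137 (14.3%), and by gene in 2.24% and 17%. Leaving out replicate 3 alone gave 1089 higher interactions, and leaving out the stressed input array that also stood apart, replicate 1, gave 935. Without both arrays there were 2155 higher and 2887 lower. G3BP1 mRNA was enriched by 0.80 without stress and differed by 0.03 with arsenite (interaction 0.77 ± 0.18, adjusted p = 0.00791). IK, a spliceosomal protein gene, measured 10.50, 10.36 and 10.05 in the unstressed RIP and 8.73, 8.65 and 8.73 in its input, a difference of 1.599, while the difference with arsenite was -0.17 (interaction 1.77 ± 0.23). FUBP1 differed by 1.39 without stress and -0.09 with arsenite (interaction 1.48 ± 0.20). PATL1 differed by -1.08 without stress and 0.03 with arsenite (interaction -1.11, adjusted p = 7.18e-05).

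**Figure D5:**
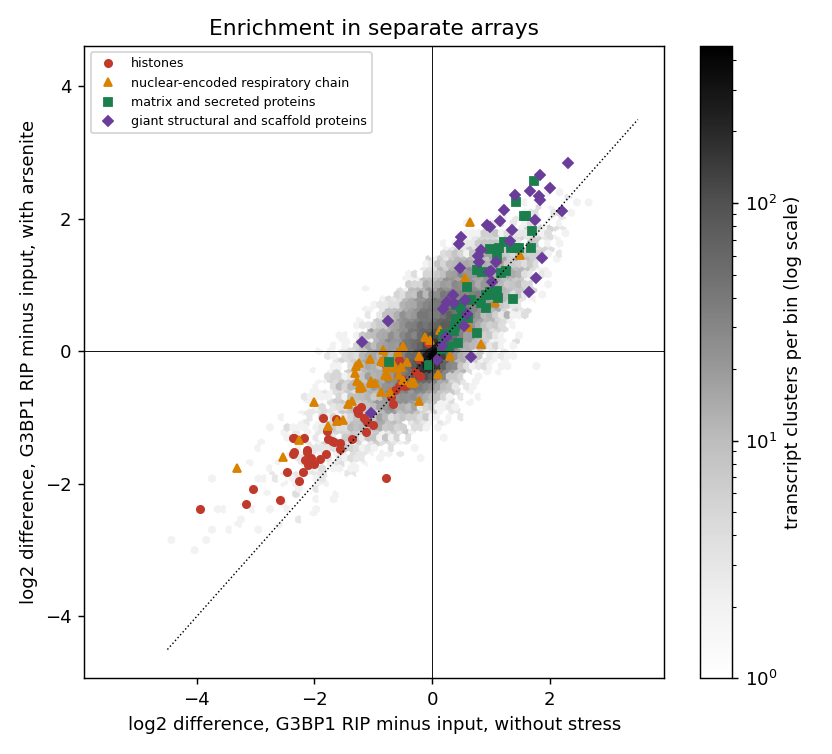
Log2 difference (G3BP1 RIP minus input) of each transcript cluster without stress (horizontal) and with arsenite (vertical), with grey density on a log scale and members of 4 gene lists marked. Histones fall in the lower left and giant scaffold and matrix genes in the upper right, and the dotted line marks equal differences.

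The direct comparison of the G3BP1 RIP with the TIAR RIP of unstressed cells shows where the G3BP1 RIP differed from another antibody. It called 6054 transcript clusters (27.5%) higher in the G3BP1 RIP and 4256 (19.3%) lower. By gene, 30.2% were higher and 19.2% lower. Both this comparison and that with input use the same G3BP1 RIP arrays, so their values are given side by side. Against the TIAR RIP, histones were higher in 12 and lower in 6 of 48 with a median of 0.06, beside 0 higher, 44 lower and -1.69 against input. H2AC15 differed from the TIAR RIP by 0.12 (adjusted p = 0.629) and H3C1 by 0.19 (adjusted p = 0.687). The respiratory chain was higher in the G3BP1 RIP than in the TIAR RIP in 34 of 54 and lower in 3 (median 0.78), and mitochondrial ribosomal proteins were higher in 47 of 65 and lower in 7 (median 1.05). Matrix genes were higher in 31 of 43 and lower in 1 (median 0.81), splicing factors in 33 of 38 and lower in 1, and glycolysis and citric acid cycle genes in 24 of 28 and lower in 1. Stress granule network genes were higher in 13 of 49 and lower in 22 (median -0.18), and ubiquitin ligase genes in 17 and 18 of 49. AATF differed by 3.82 ± 0.09 between the antibodies, PSMC3 of the proteasome by 4.03 and EXOSC9 of the exosome by 3.72. Such a difference alone does not show which RIP departed from input. Against input, PSMC3 was higher in the G3BP1 RIP by only 0.98. Its TIAR RIP arrays (7.88 to 8.12) lay below its input arrays (10.996 to 11.089). LYPLA1 (-4.19), NREP (-4.16), LINC00052 (-3.77) and MALAT1 (-3.56) were lower in the G3BP1 RIP than in the TIAR RIP. G3BP1 mRNA differed by 0.31 (adjusted p = 0.0568), and TIAL1 mRNA was higher in the G3BP1 RIP than in the TIAR RIP by 0.48 (adjusted p = 0.017).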

How the data were processed

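RNA of U251-MG cells was measured on 18 Affymetrix exon arrays, 3 in each of 6 groups taken from the sample titles. The deposited values are log2 signals. The submitters' processing notes name RMA and Affymetrix Expression Console, with which the authors summarised the probes. Version, probe-set level and joint or separate normalisation: not given in the sources used here. Control probe sets are not marked, so all 22011 transcript clusters were tested.

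A model with 6 group means (lmFit and eBayes of limma, version 3.58.1, under R version 4.3.3) took in every array, with 12 residual and 2.61 prior degrees of freedom. Two-sided p-values were adjusted by Benjamini-Hochberg over all transcript clusters, and an adjusted p under 0.05 was called. Errors are standard errors of the fit. The platform table gave 1 symbol for 14432 transcript clusters (65.6%), several for 2408 (10.9%) and none for 5171 (23.5%), and 14404 matched RefSeq by gene ID. The brightest single-symbol transcript cluster stood for each of 14232 genes, which USP10 does not have.

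Named genes are the 15 largest differences in each direction among genes called with and without replicate 3 of the G3BP1 RIP, with arrays that do not overlap and a mean above the median of the higher group. Up to 4 members of each list with the smallest p are named, with the genes of the granule network and the extremes of the other comparisons. Other list members and groupings by complex or subunit were chosen after their values were seen. The members, the 31 lists and the comparisons were chosen with earlier results of these data known. Where nothing says that arrays came from separate cultures, p-values measure the spread between these arrays, which may be technical. The number of arrays limits the precision. On simulated data for the main comparison (22011 transcript clusters), 78% of 100 changes of 1 on the log2 scale and 99% of 100 changes of 2 were recovered, with 10 false calls. The simulated noise was independent, with the same SD in every group and no array standing apart. The data differ from that setting, so these rates may not hold for them. Alternatives were other samples in the fit, priors, array weights, filters, scalings, a replicate block, a fold threshold and leaving out arrays.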

Additional observations from a re-analysis of the deposited data

Results flagged for a closer look

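The enrichment of 20 genes named here differed between unstressed and arsenite-treated cells in the interaction test (limma, adjusted p under 0.05). Each value is the G3BP1 RIP minus input difference without stress minus that with arsenite, on the log2 scale. Positive values were found for IK (1.77), DYNC1I2 (1.65), SNW1 (1.53), DNAJA2 (1.49), FUBP1 (1.48), G3BP1 (0.768), OGDH (0.515) and CAPRIN1 (0.418). DNAJA2 did not pass the test without stress (0.48, adjusted p = 0.0675) and was lower in the RIP with arsenite (-1.01), and SNW1 was higher without stress (0.83) and lower with arsenite (-0.70).

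Genes with a negative value had a lower RIP minus input difference without stress than with arsenite. They were LRRC8B (-2.07), SVBP (-2.05), POMK (-2.02), TMTC1 (-1.99) and SPPL3 (-1.98). Among the leading depleted genes they were COMMD6 (-1.77), MALAT1 (-1.72), LINC00052 (-1.71), EIF4EBP2 (-1.70), TMEM258 (-1.51), LSM5 (-1.40) and H2AC15 (-0.864). LRRC8B, POMK, TMTC1 and SPPL3 were called lower in the RIP without stress and higher with arsenite.

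Without G3BP1 RIP replicate 3 and stressed input replicate 1, the value was -0.54 for H2AC15, which no longer passed (adjusted p = 0.0615), and the other 19 passed with the same sign. In that setting SVBP was at -0.99, LSM5 at -0.63, MALAT1 at -1.13 and COMMD6 at -1.15.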

How the results depend on the processing

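The count of 8765 transcript clusters called between the G3BP1 RIP and input without stress stayed within 1.5 times of itself in every setting run apart from the fold threshold. Requiring a log2 difference of at least 1 left 3090, with 1418 higher and 1672 lower. Another scaling moved the split of higher and lower calls to 4692 and 4576 (median centring), 5665 and 4473 (quantile) and 4680 and 4909 (cyclic loess). Same-numbered unstressed G3BP1 RIP and input arrays correlated at 0.071, -0.16 and -0.078 in their deviations from the group means. Same-numbered G3BP1 and TIAR RIP arrays without stress correlated at 0.35, 0.012 and 0.416. Because G3BP1 RIP replicate 3 stood apart in a small group, these values cannot show whether the replicate numbers pair the arrays. With a replicate block the count was 8466 (4398 higher and 4068 lower).

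The interaction with arsenite was the least stable. Its 3721 calls became 5960 with array weights. Its 584 higher calls became 371 with the compared groups alone, 2361 with array weights, 1475 with median centring, 1635 with quantile normalization, 1546 with cyclic loess and 2155 without both arrays that stand apart. Leaving out 1 array at a time gave 416 to 1089. The cause was not tested.

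The median of the AU-rich list (-0.08) turned to 0.061 with array weights, 0.068 with quantile normalization, 0.065 without both arrays that stand apart, and it ran from -0.089 to 0.065 when 1 array was left out. The myeloid marker median (0.08) turned to -0.012 without the lowest 25% of transcript clusters and -0.527 without the lowest 50%. With 1 array left out, G3BP2 (0.10) ran from -0.008 to 0.289 and EGR1 (-0.03) from -0.066 to 0.015. EGR1 passed in none of the settings run. G3BP2 passed with array weights (0.259, adjusted p = 0.00887 in limma) and without both arrays that stand apart (0.289, adjusted p = 0.0155). The proteasome median (-0.04) turned to 0.225 with array weights, 0.232 without RIP replicate 3, 0.007 without input replicate 1, 0.013 with quantile normalization and 0.007 with cyclic loess. Over all named genes and settings, 2406 values kept their sign and side of the threshold, 46 lost the call, 42 gained it and 3 changed sign. Signals near the olfactory receptor level cannot be separated from absence.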
